A study of Mus musculus with 2 samples.

Results

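Genes of Toll-like receptor sensing were read in RNA of mouse spleen. They were chosen by name from the array platform's annotation: the receptors Tlr2, Tlr4 and Tlr6, the co-receptors Cd14 and Ly96, the receptor pair Cd180 and Ly86, and the signalling genes Myd88, Irak1 and Traf6. Of these 10 genes, 7 were named by at least 1 probe set, and they had 9 probe sets of the 12488 in the table. No probe set was named for Tlr2, Tlr4 or Ly96, by symbol, older symbol or gene identifier, so these 3 genes have no value here. No probe set named a member together with another gene.

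The series holds 2 oligonucleotide arrays, array 1 and array 2, which form 1 group. Both were made from commercial total RNA of whole spleen sold under a single catalogue number. The labels give no strain, age, genotype, treatment or number of animals, and do not say whether the arrays shared a tube of RNA. Their spread may therefore be purely technical, and with 1 group there is no contrast to test and no p-value.

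Toll-like receptors are membrane proteins that recognise molecules common to microbes, such as bacterial lipopeptides and lipopolysaccharide. Tlr6 works beside Tlr2, and Tlr4 binds lipopolysaccharide through Ly96 after Cd14 has handed it over. Most of these receptors signal through Myd88, which gathers Irak kinases and, through them, Traf6, leading to NF-kB. The spleen filters blood, and its macrophages and marginal zone B cells meet microbes there.

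Signal intensities are given as deposited, in arbitrary units on a linear scale. Each array has a cutoff at the 60th percentile of its signals, 346.32 for array 1 and 342.22 for array 2, and a probe set above both cutoffs is called bright. The background is the highest of 15 control probe sets for bacterial genes, 95 on array 1 and 76.2 on array 2. Brightness depends on the probe sequence as well as on the transcript, so members are not ranked against each other. Their place against these limits depends on the probe sequence too. Arrays carry no sequencing depth, and precision here is limited by having 2 of them.

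Of the 7 measured member genes, 6 were bright, where 45.2% of the 8251 named genes were. These were Tlr6, Cd14, Ly86, Myd88, Irak1 and Traf6, whereas Cd180 was not bright. By probe set, 6 of 9 were bright, where 37.9% of all probe sets were. The highest bacterial control was exceeded on each array by 8 of the 9, and by 65.5% of all probe sets. The median of the members' log2 signals was 9.11, and that of all named genes was 8.29. With a stricter cutoff, the 75th percentile, 3 of the 7 genes were bright, Cd14, Ly86 and Irak1, where 28.5% of named genes were. The list is short, and these counts carry no test.

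**Figure D1:**
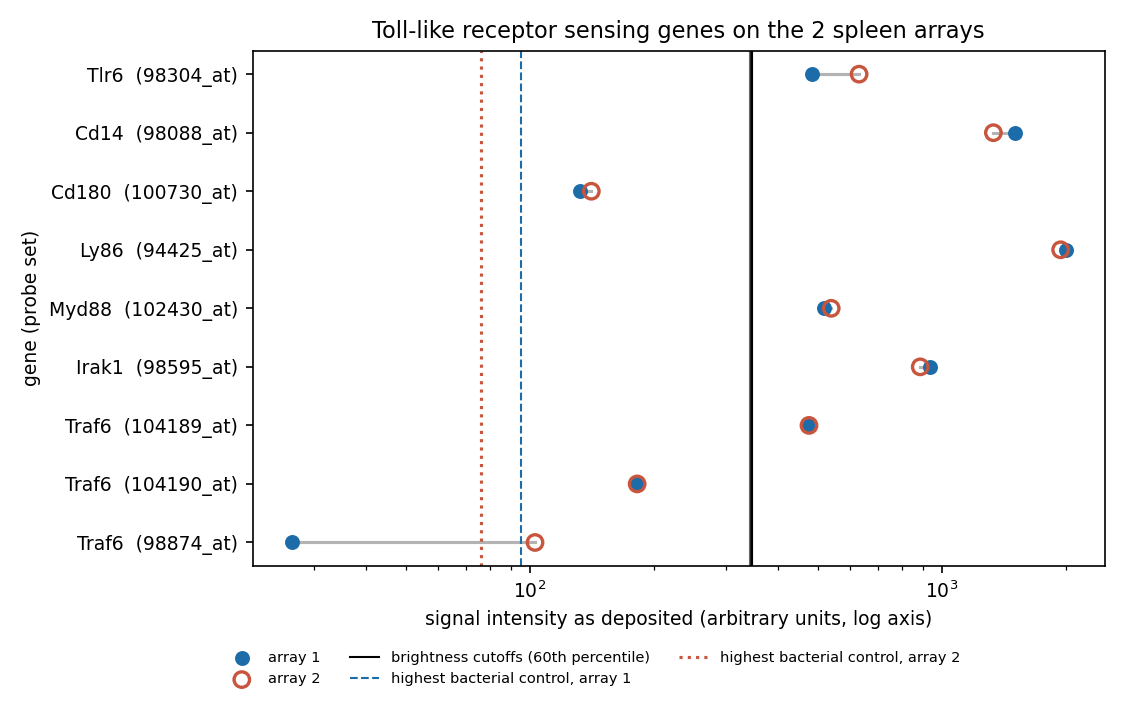
Signal intensity of the 9 member probe sets on a log axis, with array 1 as filled and array 2 as open circles, joined by a grey line. The solid line marks the brightness cutoffs (346.32 and 342.22) and the broken lines the highest bacterial control (95 and 76.2). Of the 9 probe sets, 6 lie to the right of the cutoffs on both arrays, and only Traf6 98874_at crosses the highest bacterial control between arrays.

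Among the receptors only Tlr6 was measured. Its probe set 98304_at gave 483.8 on array 1 and 630.4 on array 2, or 557 ± 104 (SD, n = 2 arrays here and below). Both values were above the cutoffs, at the 68.2nd and 74.9th percentiles of their arrays. Array 2 was higher by 0.38 on the log2 scale, the widest gap among the bright members. All probe sets were sorted by mean signal and divided into 4 equal groups, and in the group that holds Tlr6 19.2% were at least as far apart. Because Tlr2, the partner with which Tlr6 forms a receptor, was not measured, the pair cannot be described.

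Cd14, a surface and soluble protein that delivers lipopolysaccharide to the receptor complex, was bright on both arrays. Its probe set 98088_at gave 1505.5 and 1335.6, or 1421 ± 120 (SD). These values stood at the 90.4th and 88.8th percentiles. Array 2 was lower, with a log2 difference of -0.17, and 29.4% of the probe sets in the brightest of the 4 groups were at least as far apart.

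Cd180, also called RP105, is a relative of Tlr4 without its intracellular signalling domain. It is held at the surface of B cells and some myeloid cells by Ly86, also called MD-1, much as Tlr4 is held by Ly96. The 2 genes fell on opposite sides of the cutoff. Ly86 (94425_at) gave 2004.6 and 1945.0, or 1975 ± 42.1 (SD), at the 93.3rd and 93.1st percentiles of the arrays. Cd180 (100730_at) gave 132.1 and 141.1, or 137 ± 6.36 (SD), at the 38.2nd and 39.8th percentiles. On each array its signal lay between the highest bacterial control and the cutoff. The log2 differences were -0.04 for Ly86 and 0.10 for Cd180. Each gene is read by 1 probe set, so no second reading exists for either.

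Myd88, the adaptor that most Toll-like receptors and the receptors of interleukin-1 and interleukin-18 share, was bright. Its probe set 102430_at gave 519.4 and 539.4, or 529 ± 14.1 (SD), at the 69.9th and 71.4th percentiles. Irak1, a kinase that joins Myd88 at the active receptor, was bright as well. Its probe set 98595_at gave 939.1 and 887.3, or 913 ± 36.6 (SD), at the 83.1st and 82.0th percentiles. The arrays differed by 0.06 for Myd88 and by -0.08 for Irak1 on the log2 scale.

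Traf6, a ubiquitin ligase that passes the signal from Irak kinases towards NF-kB and the MAP kinases, was read by 3 probe sets, which disagreed. The probe set 104189_at gave 475.7 and 476.4, above the cutoffs on both arrays. A second, 104190_at, gave 181.9 and 182.3, below the cutoffs and above the highest bacterial control. The third, 98874_at, gave 26.4 on array 1 and 103.0 on array 2, below the highest bacterial control on array 1 and above it on array 2. With low values floored at 41.8, the 20th percentile of each array, its log2 difference was 1.30. It was the only 1 of the 9 member probe sets over 2-fold apart between the arrays, where 5.13% of all probe sets were. In its group of like mean signal 10.02% of probe sets were at least as far apart. The count of bright genes takes the probe set with the strongest mean log2 signal, 104189_at. With the mean over the 3 probe sets Traf6 was not bright, which left 5 of 7 member genes, where 38.3% of named genes were bright by that rule. Such disagreement was common on these arrays: among the 2073 genes that more than 1 probe set named, 42.5% had both a bright and a dimmer one.

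**Figure D2:**
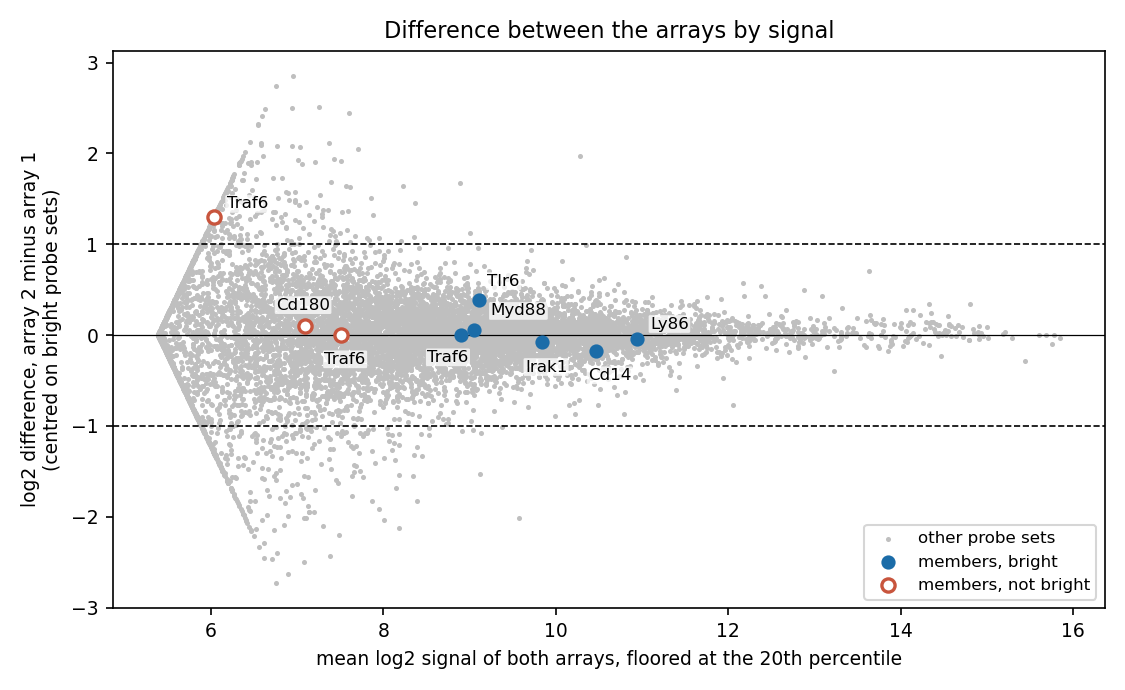
Log2 difference between the arrays (array 2 minus array 1, centred on bright probe sets) against mean log2 signal, for all probe sets in grey, bright members in blue and other members as open circles. Dashed lines mark a 2-fold difference, past which 1 member probe set lies, Traf6 98874_at at 1.30. The 6 bright members lie between -0.17 and 0.38.

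The bright members were measured about as closely as bright probe sets in general. Their pooled SD, computed from the differences between arrays, was 0.125 on the log2 scale over 6 probe sets, most of it from Tlr6. That of all 4708 bright probe sets was 0.152. Of the 6 bright members, 3 were higher on array 1 and 3 on array 2. Over the 3 members that were not bright the pooled SD was 0.533, most of it from Traf6 98874_at. Over all 9 it was 0.324, and over all probe sets 0.317.

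Of 78 other genes of the pathway, in 6 lists, 53 were measured and 20 were bright, where 45.2% of named genes were. Above the highest bacterial control on each array were 40 of the 53, where 73.9% of named genes were. None of the 20 bright genes was over 2-fold apart between the arrays, and of all bright named genes 0.107% were. Among the genes that were not bright, Il12b, Cxcl1, Acod1 and Ccl4 were, with log2 differences of 1.90, 1.35, 1.13 and -1.08. None of these exceeded the highest bacterial control on both arrays. Of all probe sets, bright or not, 5.13% were over 2-fold apart, and the share among named genes that were not bright was not computed.

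Among the other Toll-like receptors, 1 of 9 genes had a probe set. This was Tlr7, an endosomal receptor of single-stranded RNA, at 93.6 and 84.6, which was not bright and lay below the highest bacterial control on array 1. Of the co-receptors and chaperones 3 of 6 measured genes were bright, where 45.2% of named genes were. Hsp90b1, the chaperone gp96 on which most Toll-like receptors depend to fold, gave 5904.5 and 6752.4. Unc93b1, which escorts the nucleic acid sensing receptors to endosomes, gave 1030.6 and 1036.1 from a probe set whose suffix _r_at marks relaxed probe selection. The integrin chain Itgb2 gave 1636.7 and 1483.2. Lbp, the plasma protein that brings lipopolysaccharide to Cd14, gave 318.9 and 511.6 and passed the cutoff on array 2 alone. The negative regulator Tollip, at 325.3 and 468.8, did the same. So did Il18r1 of the interleukin-1 receptor family, at 331.4 and 391.2. These genes were singled out after their values were seen.

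Of the 12 measured adaptors and kinases 8 were bright, where 45.2% of named genes were. Tab2, which links Traf6 to the kinase Map3k7, gave 2451.7 and 2617.9. Ube2n and Ube2v1, the ubiquitin-conjugating pair that works with Traf6, gave 1465.4 and 1470.9, and 1630.3 and 1536.2. Peli1, a ubiquitin ligase of Irak proteins, gave 824.6 and 959.0. Of other genes that act next to Traf6, Map3k7 itself gave 181.2 and 140.6 and the Tab2 relative Tab3 gave 192.3 and 246.7, and neither was bright. Both were singled out after their values were seen. Btk, a kinase of B cells and myeloid cells, gave 1345.5 and 1209.5. Another probe set of Btk, with the suffix _r_at, gave 6.6 and 30.9, under the highest bacterial control of each array. The kinases of the NF-kB and interferon branches were Tbk1 at 907.5 and 760.0, Ikbke at 626.7 and 562.4, and Ikbkb at 439.6 and 519.9. Tirap, the adaptor that brings Myd88 to Tlr2 and Tlr4, gave 61.0 and 12.9, under the highest bacterial control of each array, and was singled out after its values were seen.

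Negative regulators were bright in 3 of 6 cases, where 45.2% of named genes were. Inpp5d, the lipid phosphatase SHIP-1, gave 1124.8 and 1156.4, Socs1 gave 718.3 and 580.2, and Traf4 gave 661.8 and 677.1. Another probe set of Inpp5d gave 141.8 and 185.8 and was not bright, whereas another of Traf4 was bright at 658.2 and 592.8. Of the 22 genes that the pathway is known to induce, all measured, 6 were bright, where 45.2% of named genes were. The highest bacterial control of each array was exceeded by 12 of the 22, and by 73.9% of named genes. The NF-kB inhibitor Nfkbia gave 3007.0 and 2836.8. The cytokines Il1b and Il18 gave 633.8 and 609.7, and 657.6 and 670.6. The surface proteins Cd86, Icam1 and Cd40 gave 838.1 and 885.1, 622.8 and 751.2, and 417.0 and 369.0. The Cd86 values come from a probe set with a suffix for several targets, _s_at. Another probe set of Cd86 gave 209.1 and 225.1, below the cutoffs, whereas another of Nfkbia was bright at 1505.4 and 1432.4. The other 16 targets, among them Tnf at 160.1 and 114.6 and Il6 at 7.0 and 7.6, were not bright; both were singled out after their values were seen. The list of the interleukin-1 receptor family held Il1r1, Il1rap, Il18r1 and Il18rap, whose receptors signal through Myd88, the decoy receptor Il1r2 and the secreted antagonist Il1rn. Of these 6 genes 0 were bright, where 45.2% of named genes were. Above the highest bacterial control on each array were 5 of the 6, and 73.9% of named genes.

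**Figure D3:**
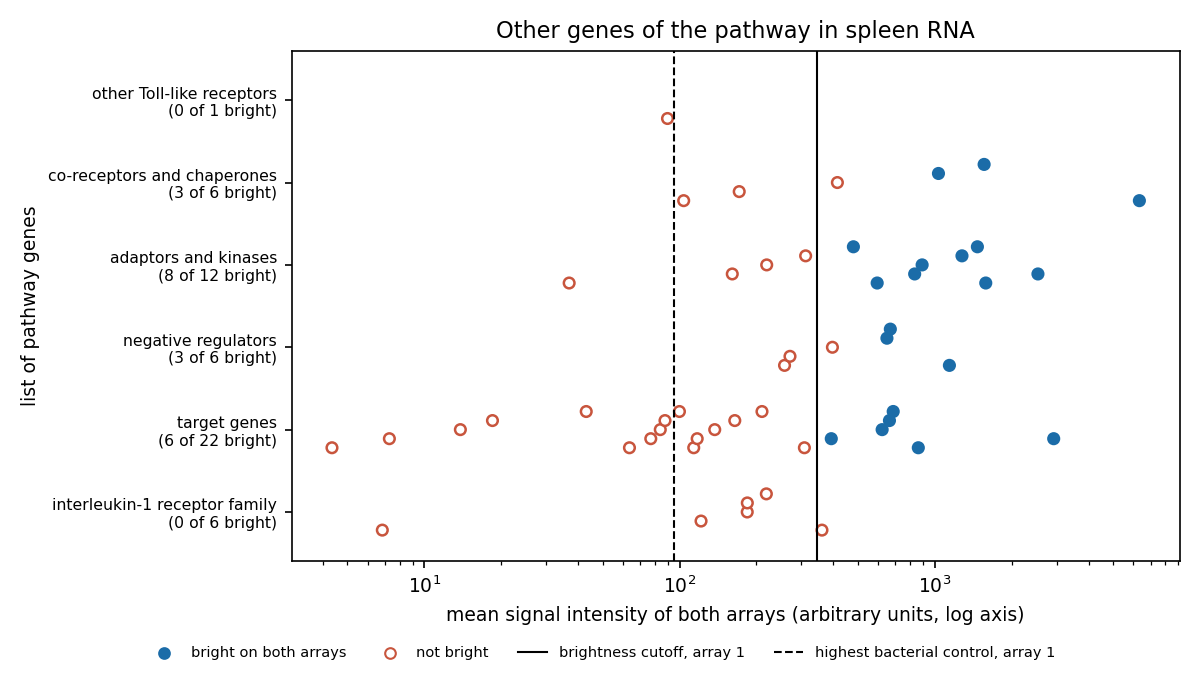
Mean signal intensity of both arrays (log axis) for the 53 measured pathway genes, 1 circle per gene, by list. Filled circles are bright on both arrays, the solid and dashed lines are the cutoff and the highest bacterial control of array 1, and the vertical scatter within a list has no meaning. Adaptors and kinases have 8 of 12 genes bright, target genes 6 of 22 and the interleukin-1 receptor family 0 of 6. Of all named genes 45.2% were bright.

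The RNA held markers of the immune cells of the spleen. Markers of B cells were bright in 7 of 8 cases, of macrophages and monocytes in 7 of 10, of dendritic cells in 5 of 6, of neutrophils in 6 of 8 and of T cells in 4 of 5. Of all named genes 45.2% were bright. Summed over the list, B cell markers gave 34214 and 34257 and macrophage and monocyte markers 27399 and 27044 on arrays 1 and 2. Lists differ in length and probe sets in brightness, so sums compare the arrays and not the cell types. The markers that were not bright were Cr2 for B cells, and Itgam, Marco and Siglec1 for macrophages and monocytes, Zbtb46 for dendritic cells, Mmp9 and Cxcr2 for neutrophils, and Cd28 for T cells. Itgam is also in the co-receptor list, and Cr2 was read only by a probe set with the suffix _r_at. In RNA of a whole organ, fewer cells of a type and less RNA per cell cannot be told apart, and no member can be assigned to a cell type. Acinar markers of the pancreas, an organ beside the spleen, were bright in 7 of 7 cases, with a summed signal of 61974 and 63891. Liver markers were bright in 2 of 4 cases and brain markers in 1 of 4, where 45.2% of named genes were. The part of pancreas RNA in the signals of the members and of the other pathway genes, Hsp90b1 among them, was not tested.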

How the data were processed

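The deposited table gives a linear signal intensity for every probe set on each array; no source used here names the software behind it. Probe sets were named from the platform's annotation, and the 7 measured members' identifiers matched RefSeq (GRCm38.p6) symbols. No build is named for the arrays, so no coordinates are given. Control probe sets (66) stayed out of all counts. The deposited intensities were raised to each array's 20th percentile where lower, then log2-transformed. Log2 differences were centred on the median of the bright probe sets. A gene with several probe sets took the value of the 1 with the highest mean log2 signal. Percentiles are ranks among all probe sets of an array that are no controls, which were also divided by mean log2 signal into 4 equal groups. All members were described. From each pathway list the bright genes were named, up to 8. The members and lists were chosen with earlier results of these data known. The code for pooled SD and fold counts was run on simulated data with the same spread for every probe set. Shifts were planted only far above the cutoff, so fold counts for dim probe sets were not tested there. Alternatives changed the floor, a pseudocount of 16, quantile normalization, centring, the brightness cutoff, the probe set rule and the arrays used. Python 3.11.15, numpy 2.4.6, pandas 2.3.3 and matplotlib 3.10.9 were used.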

Additional observations from a re-analysis of the deposited data

How the results depend on the processing

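No paired analysis was possible because the arrays form 1 group. With a 75th percentile cutoff 3 of 7 member genes were bright in place of 6, where 28.5% of named genes were. Of the member probe sets 3 of 9 were bright in place of 6, and the share of all probe sets was not computed. With the highest bacterial control as the cutoff, 40 of 53 other pathway genes passed in place of 20, and so did 73.9% of named genes. No other alternative moved a count or the pooled SD by over 1.5 times, but several could not do so by construction. The lower floor and the pseudocount cannot change which members pass a percentile cutoff, quantile normalization keeps the ranks within an array, and no member probe set carries a suffix for several targets. On a single array 6 member genes and 6 member probe sets were bright in each case, and 20 to 24 other pathway genes were. There, 8 to 9 member probe sets exceeded the highest bacterial control, and the median log2 signal was 9.02 to 9.30. The shares of all genes and probe sets on a single array were not computed. With the floor at the 10th percentile the pooled SD over members was 0.475, in place of 0.324, since the array 1 value of Traf6 98874_at, 26.4, lies below the 20th percentile and above the 10th. For single probe sets, 5 of 18 log2 signals moved by more than the SD between arrays. Most of these came with the pseudocount, which by construction raises any signal above the floor. Quantile normalization moved only Traf6 104189_at, from 8.895 to 8.898, whose log2 difference between arrays was just 0.0038. With 2 arrays no check for an array that stands apart could be made.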
